A study of Mus musculus with 8 samples.

Results

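The genes described here serve chloride, water and bicarbonate transport at the muscle cell surface: Clcn1, Aqp4, Aqp1, Aqp7, Slc4a4, Car2, Car3 and Car14. These 8 genes are among 14860 genes that had a transcript cluster with a single symbol, and each of the 8 had exactly 1 such cluster, so no choice between clusters was needed. The data were expression values of the tibialis anterior, the fast-twitch dorsiflexor of the foot, from male mice aged 8 weeks. The fed pools came from mice with free access to food, and the fasted pools from mice kept without food for 24 h. Each exon array held RNA pooled from 3 mice. The experiment was run 4 times with 1 fed and 1 fasted pool each, which gave 8 arrays. No strain, genotype or transgene is named in the labels.

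A muscle fibre at rest is held near its resting potential by a large chloride conductance, most of which passes through the channel encoded by Clcn1, and loss of that channel causes myotonia, a failure to relax after contraction. Water crosses the membrane of fast fibres mainly through aquaporin 4, which the dystrophin complex holds in place by way of syntrophin, while aquaporin 1 serves the capillary wall and the red blood cell. Acid made by working muscle is buffered with bicarbonate, which carbonic anhydrases form from carbon dioxide and water and which membrane carriers such as the product of Slc4a4 move across the membrane.

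The 8 genes were chosen by their fasted minus fed differences and adjusted p in these arrays, which were known when the group was drawn up. Their levels, differences, intervals and adjusted p-values are therefore a description of the arrays and carry no test. The p-values are those of limma's paired fit over 16755 transcript clusters, with Benjamini-Hochberg adjustment. Among the 8 genes, 3 had an adjusted p below 0.05, and all 3 were lower in fasted muscle. Over all clusters 0.818% were past that threshold, 0.286% lower and 0.531% higher in fasted muscle. The 3 genes were Clcn1, Aqp4 and Slc4a4, in which the fasted pool was lower in 4 of 4 experiments and the lowest fed pool lay above the highest fasted pool. Groups that did not overlap in this direction were seen in 3.22% of all clusters. An unadjusted p below 0.05, which is cited for some gene lists further on, was reached by 10.9% of all clusters. The other 5 genes differed by between -0.26 and 0.23 on the log2 scale, and their fed and fasted ranges overlapped. Arrays of muscle tissue cannot tell fewer cells of a type apart from less RNA per cell.

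The array medians lay between 5.76 and 5.91 log2 units and the median standard error of a difference was 0.12. As a check of the labelled tissue, the 10 measured fast fibre markers had log2 levels from 8.17 to 12.49, with Casq1, the calcium store protein of fast fibres, at 11.84 ± 0.14 in fed and 11.57 ± 0.09 in fasted pools (SD, n = 4).

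**Figure D1:**
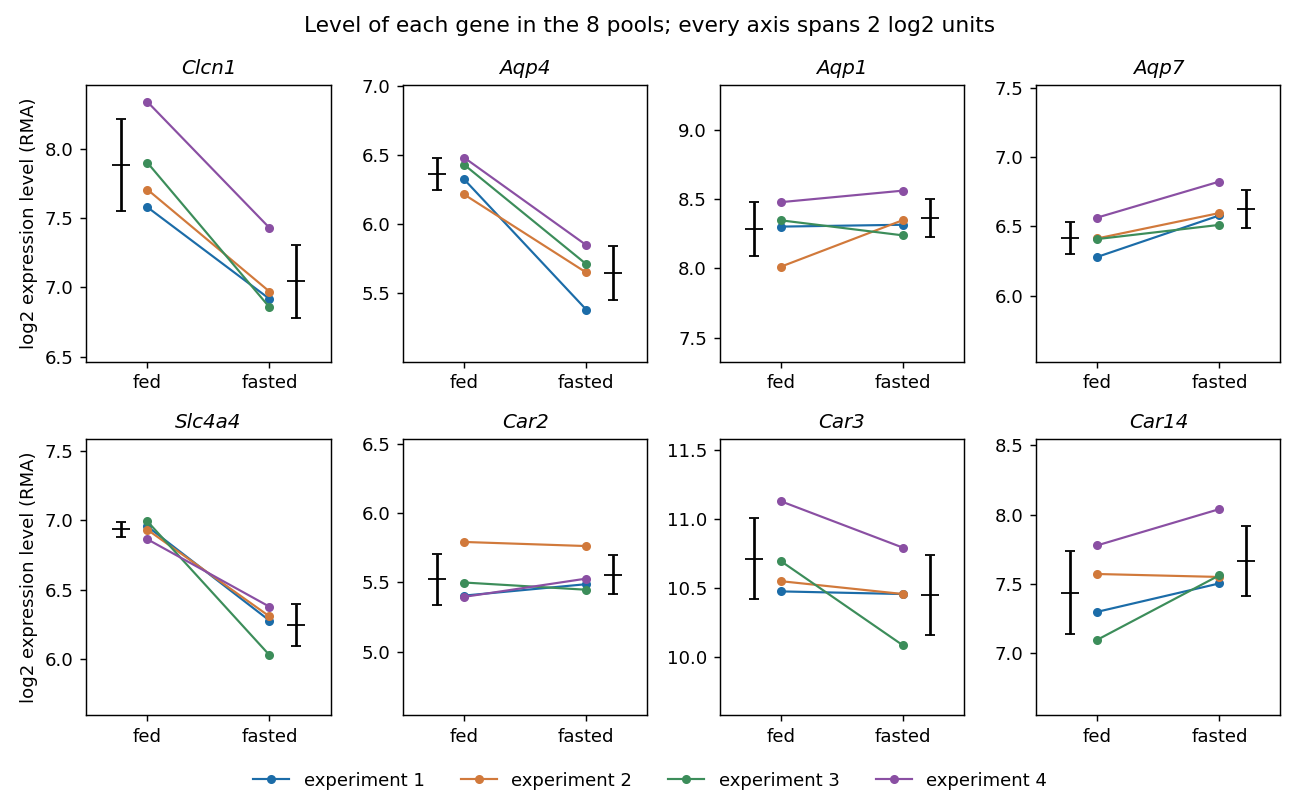
Log2 expression level of each of the 8 genes in fed and fasted pools (vertical axes in log2 units, each spanning 2 units), with a line for each of the 4 experiments and the mean ± SD of each group (n = 4) in black beside the points. The lines of Clcn1, Aqp4 and Slc4a4 all fall without overlap between groups, while those of the other genes overlap.

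The start regions of 2 of the 3 lower genes, Clcn1 and Slc4a4, are shown first. None was found for Aqp4, which was lower in the same pools. RefSeq start regions of GRCm38.p6, 250 bases before to 50 after the start, were found for 5 of the 8 genes, namely Clcn1, Slc4a4, Aqp1, Aqp7 and Car14, with 7 start regions among them. The Clcn1 region lies at chr6:42286435-42286734 on the plus strand. Slc4a4 has a distal start at chr5:88887010-88887309 and an internal start at chr5:89027716-89028015, both on the plus strand. Capitals mark matches on either strand to the E-box CANNTG, the FoxO motif GTAAACA, the glucocorticoid half-site AGAACA, the TATA motif TATAAA and the MEF2 motif.
Clcn1: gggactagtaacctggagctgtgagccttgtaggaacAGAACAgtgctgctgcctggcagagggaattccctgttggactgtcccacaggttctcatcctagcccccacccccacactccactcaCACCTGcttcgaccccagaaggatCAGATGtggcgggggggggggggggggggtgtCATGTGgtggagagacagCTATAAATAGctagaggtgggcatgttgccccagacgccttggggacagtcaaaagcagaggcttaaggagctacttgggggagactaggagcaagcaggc
Slc4a4 distal start: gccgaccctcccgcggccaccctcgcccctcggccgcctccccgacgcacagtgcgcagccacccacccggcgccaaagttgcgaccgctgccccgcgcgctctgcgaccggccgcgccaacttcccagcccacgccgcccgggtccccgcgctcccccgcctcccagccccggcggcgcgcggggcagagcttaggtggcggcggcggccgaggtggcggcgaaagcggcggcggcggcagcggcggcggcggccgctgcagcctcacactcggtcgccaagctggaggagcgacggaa
Slc4a4 internal start: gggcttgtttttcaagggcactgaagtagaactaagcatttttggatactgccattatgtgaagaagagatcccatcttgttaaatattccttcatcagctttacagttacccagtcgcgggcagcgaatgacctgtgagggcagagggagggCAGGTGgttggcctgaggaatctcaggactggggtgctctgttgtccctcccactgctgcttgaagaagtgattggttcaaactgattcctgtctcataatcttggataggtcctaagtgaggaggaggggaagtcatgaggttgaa

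The Clcn1 region held 3 E-boxes, which begin 125, 101 and 69 bases before the start, 1 glucocorticoid half-site at 213 bases and 1 MEF2 motif at 51 bases, inside which lies the TATA motif. MEF2 motifs, the sites of a family of muscle transcription factors, were present in 0.557% of all 32851 start regions of this length, E-boxes in 72.3%, glucocorticoid half-sites in 19.0% and TATA motifs in 13.6%. The distal Slc4a4 region, with 80% G and C against 53.8% over all start regions, held no match to any of the 5 motifs, and the internal one held 1 E-box at 97 bases. E-boxes were also in the regions of Aqp1, Aqp7 and Car14, 6 of the 7 regions in all, and the half-site also in those of Aqp7 and Car14, 4 of the 7, where Aqp1, Aqp7 and Car14 were not past the threshold. The 2 Aqp7 regions overlap and share their half-site and an E-box, so these counts are not all of separate sites. The MEF2 and TATA motifs were in the Clcn1 region alone among the 7. The FoxO motif, present in 3.65% of all start regions, was in none of the 7 regions of these genes. The motifs were picked after the sequences had been read, and a match is a run of letters and not a measured binding site. The cluster of Slc4a4 gives a single value for the gene, so the starts were not told apart by these arrays.

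Clcn1, the channel of the resting chloride conductance (transcript cluster 6945782), had fed levels of 7.58, 7.71, 7.90 and 8.34 log2 units in experiments 1 to 4 and fasted levels of 6.92, 6.97, 6.86 and 7.43. Every fasted pool was below every fed pool, and in both groups the pool of experiment 4 was the highest. The difference, fasted minus fed, was -0.84 ± 0.11 (SE, 95% interval -1.10 to -0.58, adjusted p = 0.0247), which placed the fasted level at 55.9% of the fed one, a 1.79-fold lower level. Within experiments the fasted level was between 48.5% and 63.2% of the fed level. By size of fall Clcn1 stood in place 28 of 16755 clusters. In the fit without the experiment block its adjusted p was 0.0536, without experiments 1, 2 and 4 it was 0.0737, 0.0967 and 0.117, and after median centring of each array it was 0.0695, at differences between -0.90 and -0.77 over all alternatives.

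Aqp4, the main water channel of the fast fibre membrane (cluster 6863605), had fed levels of 6.32, 6.21, 6.43 and 6.48 in experiments 1 to 4 and fasted levels of 5.38, 5.65, 5.71 and 5.85. The groups were separated by a gap of 0.37 log2 units between the lowest fed and the highest fasted pool. The difference was -0.71 ± 0.11 (SE, 95% interval -0.97 to -0.46, adjusted p = 0.0368), so that fasted pools held 61.0% of the fed level. The fasted levels were all below the highest array median of 5.91. Detection calls were not used, so part of a level this low may be background. The fasted pool of experiment 1 was the lowest of the 8, and that experiment had the largest difference, -0.94. Leaving out any 1 experiment gave adjusted p of 0.135, 0.136, 0.0716 and 0.150 for experiments 1 to 4, and median centring 0.0622, with differences from -0.76 to -0.64.

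Slc4a4, the electrogenic sodium bicarbonate cotransporter NBCe1 (cluster 6932240), had fed levels of 6.96, 6.93, 6.99 and 6.86 and fasted levels of 6.28, 6.31, 6.03 and 6.38. Fed pools lay close together, with an SD of 0.05, and fasted pools were spread more widely, with an SD of 0.15. The lowest fed pool was 0.49 log2 units above the highest fasted pool, the widest gap of the 8 genes. The difference was -0.69 ± 0.12 (SE, 95% interval -0.96 to -0.42, adjusted p = 0.0490), or 62.0% of the fed level. Its adjusted p was just below the threshold. It was 0.167, 0.187, 0.0892 and 0.141 without experiments 1 to 4 in turn, 0.0618 after quantile normalization and 0.0983 after median centring, at differences from -0.76 to -0.60.

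The differences of these 3 genes were of similar size. The difference of Clcn1 was below that of Aqp4 in 3 of 4 experiments, at -0.12 log2 units on average, and below that of Slc4a4 in 3 of 4, at -0.15. These gaps were smaller than the spread over experiments, in which Clcn1 minus Aqp4 ran from -0.33 to 0.28. Experiment 3 had the largest difference for Clcn1 and Slc4a4, -1.04 and -0.97, and experiment 1 for Aqp4. Beside these 3 genes, 9 of 10 fast fibre markers had differences below 0, with a median of -0.05. None was past the threshold of the fit, and 2 had an unadjusted p below 0.05. The summed linear level of the markers ran from 32637 to 37578 in fed and from 31128 to 35820 in fasted pools. The lowest marker difference was that of Myl1, a fast myosin light chain, at -0.33 ± 0.11 (adjusted p = 0.306). The part of fibre content in the lower levels was not tested.

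**Figure D2:**
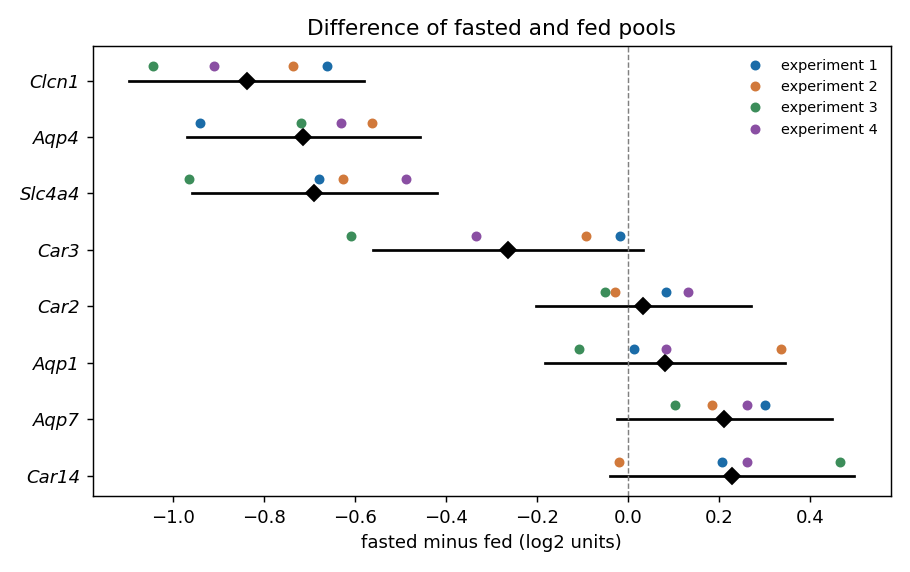
Fasted minus fed difference of each gene in log2 units (horizontal axis), with the mean as a diamond, its moderated 95% interval as a line and the 4 experiments as coloured points. Clcn1, Aqp4 and Slc4a4 sit between -0.84 and -0.69 with intervals below 0, and the intervals of the other 5 genes include 0.

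The intervals of the other water channels included 0. Aqp1, the water channel of capillary endothelium and red blood cells (cluster 6946406), had fed levels of 8.30, 8.01, 8.35 and 8.48 and fasted levels of 8.32, 8.35, 8.24 and 8.56. The fasted pool was higher in 3 experiments and lower in experiment 3, and the groups overlapped. The difference was 0.08 ± 0.11 (SE, 95% interval -0.18 to 0.35, adjusted p = 0.919). Without experiment 2 it was -0.0040. The difference of Aqp4 minus that of Aqp1 ran from -0.95 to -0.61 log2 units over the 4 experiments. Endothelial markers, 14 of 14 measured, had differences above 0 in 10 genes, a median of 0.03, none past the threshold and 3 at an unadjusted p below 0.05. Their summed linear level ran from 1604 to 1880 in fed and from 1632 to 2033 in fasted pools. These 3 were Kdr, a receptor of vascular endothelial growth factor, at -0.48 ± 0.12 (adjusted p = 0.163), Cldn5, a tight junction protein, at 0.44 ± 0.13 (adjusted p = 0.221), and Pecam1, an adhesion molecule of endothelial junctions, at 0.34 ± 0.11 (adjusted p = 0.292).

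Aqp7, an aquaglyceroporin that passes glycerol as well as water and is best known from adipocytes (cluster 6921008), had fed levels of 6.28, 6.41, 6.41 and 6.56 and fasted levels of 6.58, 6.60, 6.51 and 6.82. The fasted pool was higher in 4 of 4 experiments, while the ranges of the groups overlapped because the fed pool of experiment 4 lay above the fasted pool of experiment 3. The difference was 0.21 ± 0.10 (SE, 95% interval -0.02 to 0.45, adjusted p = 0.523), 1.16-fold higher. The same sign in 4 of 4 experiments, in either direction, was seen in 18.7% of all clusters. Beside it, adipocyte markers had a summed linear level of 668 to 828 in fed and 854 to 888 in fasted pools. That sum is weighted towards the markers of highest level, Fabp4 and Plin4. Their means were 7.48 and 6.98 in fed and 7.87 and 7.66 in fasted pools. Of the 9 measured, 6 had differences above 0, with a median of 0.19, and 3 had an unadjusted p below 0.05. Of these, 1 rose, Plin4, a lipid droplet protein, by 0.68 ± 0.10 (adjusted p = 0.0330), a call lost with any experiment dropped (adjusted p as high as 0.157) and after median centring (0.0545). The other 2 at an unadjusted p below 0.05 were Adig, at 0.45 ± 0.13 (adjusted p = 0.211), and Fabp4, a fatty acid binding protein, at 0.38 ± 0.11 (adjusted p = 0.235). Each was higher in 4 of 4 experiments. The 3 markers with differences below 0 were Retn, Adipoq and Plin1. Retn had the lowest difference of the list, -0.26 ± 0.12, and was lower in 3 of 4 experiments. Adipoq, which encodes adiponectin, and Plin1, which coats the fat cell droplet, were at -0.10 ± 0.15 and -0.04 ± 0.12. The part of fat cells in the level of Aqp7 was not tested.

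Of the 3 carbonic anhydrases, none had an adjusted p below 0.05 or an unadjusted p below 0.05 in limma's paired fit. Car3, a cytosolic enzyme of low activity that is abundant in slow fibres and fat cells (cluster 6895855), had fed levels of 10.48, 10.55, 10.70 and 11.13 and fasted levels of 10.46, 10.46, 10.09 and 10.79. The fasted pool was lower in 4 of 4 experiments, with differences from -0.02 in experiment 1 to -0.61 in experiment 3, and the groups overlapped. The difference was -0.26 ± 0.13 (SE, 95% interval -0.56 to 0.03, adjusted p = 0.528). Without experiment 3 it was -0.15. Slow fibre markers, 7 measured, had a median difference of 0.11, with 5 above 0 and 2 below. None was past the threshold and 1 was at an unadjusted p below 0.05. That gene was Casq2, which was lower in 4 of 4 experiments, at -0.39 ± 0.10 (adjusted p = 0.178). Myoz2 was at 0.40 ± 0.20 (adjusted p = 0.553). The summed linear level of the slow fibre markers ran from 3000.2 to 5025 in fed and from 3201 to 4258 in fasted pools.

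Car2, the fast cytosolic carbonic anhydrase of red blood cells and many tissues (cluster 6895856), had fed levels of 5.40, 5.79, 5.50 and 5.39 and fasted levels of 5.49, 5.76, 5.45 and 5.53. Both pools of experiment 2 were the highest of their groups, and the fasted pool was higher in 2 experiments and lower in the other 2. The difference was 0.03 ± 0.10 (SE, 95% interval -0.20 to 0.27, adjusted p = 0.970). Outside experiment 2 the Car2 levels were all below the lowest array median of 5.76, so they may be in part background. Red blood cell markers, of which 5 were measured, had a median difference of 0.00 and summed linear levels of 186 to 209 in fed and 176 to 206 in fasted pools. Their log2 levels ran from 3.98 to 6.09, so the low ones among them may also be in part background. The blood group protein genes Rhd and Rhag were at -0.21 ± 0.11 (adjusted p = 0.568) and -0.20 ± 0.12 (adjusted p = 0.633), each lower in 3 of 4 experiments, and Alas2, the erythroid enzyme that starts haem synthesis, was at 0.00 ± 0.12. Car2 and Car3 are neighbouring genes on chromosome 3, and the difference of Car3 minus that of Car2 ran from -0.56 to -0.06 log2 units over the 4 experiments.

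Car14, a membrane-bound carbonic anhydrase with its active site outside the cell (cluster 6907224), had fed levels of 7.30, 7.57, 7.10 and 7.78 and fasted levels of 7.50, 7.55, 7.56 and 8.04. The fasted pools of experiments 1 to 3 lay between 7.50 and 7.56, and that of experiment 4 stood above them. The difference was 0.23 ± 0.12 (SE, 95% interval -0.04 to 0.50, adjusted p = 0.556), and the fasted pool was higher in 3 of 4 experiments. Intervals of this width do not show that Aqp1, Aqp7, Car2, Car3 and Car14 kept their level. Contrasts between members are given as values and were not tested.

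Levels of these genes also varied between experiments, by amounts that differed from gene to gene. In 6 of the 8 genes, Clcn1, Aqp4, Aqp1, Aqp7, Car3 and Car14, the pools of experiment 4 were the highest of both the fed and the fasted group, against 11.6% of all clusters. The mean of both pools of an experiment ranged over 0.64 log2 units in Clcn1, 0.58 in Car14 and 0.57 in Car3, but over 0.11 in Slc4a4, and the median range was 0.34 in the 8 genes and 0.28 in all clusters. The difference between fasted and fed pools was larger than this range in Clcn1, Aqp4 and Slc4a4 and smaller in the other 5 genes. Limma's F-test of the experiment term, added after the data were seen, gave no cluster of 16755 an adjusted p below 0.05, while 6.37% of all clusters and 2 of the 8 genes, Clcn1 and Car14, had an unadjusted p below 0.05 (0.0154 and 0.0323). The 8 genes share the same 8 arrays, so their common order over experiments counts as a single observation.

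**Figure D3:**
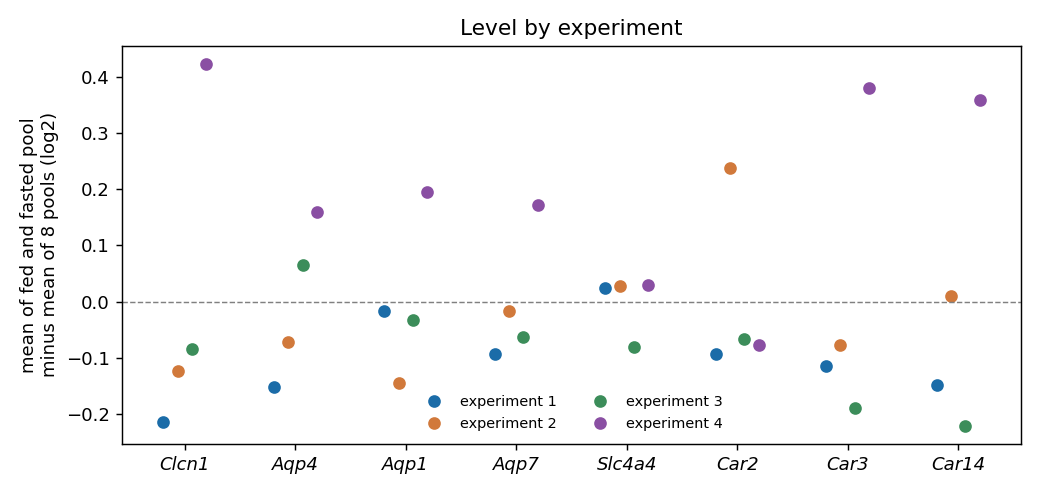
Mean of the fed and fasted pool of each experiment minus the mean of the 8 pools, in log2 units (vertical axis), for each gene, with colours for the 4 experiments. Experiment 4 is the highest point in 7 genes and experiment 2 in Car2, and the points of Slc4a4 lie within 0.11 log2 units.

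The other genes of these transport systems were read through 9 lists with 99 measured genes, which leave out the 8 genes above. By limma's paired test with adjustment over all clusters, 1 of the 99 was lower and none higher in fasted muscle, a share of 1.01% against 0.818% of all clusters, and 10 (10.1%) had an unadjusted p below 0.05, against 10.9% of all clusters. The median difference over the 99 genes was -0.03, against -0.02 over all clusters.

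The gene that fell was Best3, a bestrophin of the calcium-activated chloride channel family (cluster 6770952). Its fed levels were 5.84, 5.81, 5.84 and 6.02 and its fasted levels 5.10, 5.25, 5.33 and 5.40, with no overlap. It fell by 0.61 ± 0.10 (SE, log2, adjusted p = 0.0490), a 1.52-fold lower level. The fasted levels were all below the lowest array median of 5.76, so they may be in part background. The call ended when any 1 experiment was left out, with adjusted p from 0.0736 to 0.240, and after median centring (0.0703). Best3 was also the gene whose 8 array values were most like those of Aqp4. Among the other 22 measured chloride channel genes none passed, and the list median was -0.07. Ano5, an anoctamin of muscle membranes, was at -0.48 ± 0.16 (adjusted p = 0.302). Clcn3, an intracellular chloride-proton exchanger, was at -0.28 ± 0.13 (adjusted p = 0.516). The remaining members of the Clcn1 family, Clcn2 and Clcn4 to Clcn7, which were named after their values were seen, had differences between -0.15 and 0.15.

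None of 10 genes of cation-chloride cotransport, which sets the chloride gradient, passed, and 2 had an unadjusted p below 0.05. The sodium-potassium-chloride carrier gene Slc12a2 was at 0.50 ± 0.19 (adjusted p = 0.362) and its activating kinase gene Stk39 at -0.35 ± 0.13 (adjusted p = 0.369). Of 5 measured genes of the splicing factor families that act on the Clcn1 transcript in myotonic dystrophy, none had an adjusted or unadjusted p below 0.05 in the limma fit, and Mbnl1 was at -0.07 ± 0.11 (adjusted p = 0.935) and Mbnl2 at -0.17 ± 0.10 (adjusted p = 0.659).

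None of the 9 other aquaporins passed by limma, adjusted or at an unadjusted p below 0.05, and the largest difference was that of the aquaglyceroporin Aqp3 at 0.19 ± 0.13 (adjusted p = 0.706). In the complex that anchors aquaporin 4, 3 of 8 measured genes had an unadjusted p below 0.05 and none passed over all clusters. These 3 were below their fed level: the dystrobrevin gene Dtna at -0.40 ± 0.11 (adjusted p = 0.200), the sarcoglycan gene Sgcd at -0.55 ± 0.16 (adjusted p = 0.219) and the sarcospan gene Sspn at -0.30 ± 0.12 (adjusted p = 0.399). Dystrophin itself, Dmd, was at 0.22 ± 0.19 (adjusted p = 0.797).

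Glycerol, which aquaglyceroporins carry, is linked to glycolysis by glycerol-3-phosphate dehydrogenases. Of 4 genes measured in the glycerol handling list none passed by limma and 2 had an unadjusted p below 0.05. Gyk, also listed, had no cluster with a single symbol. Gpd1, the cytosolic enzyme, went from fed levels of 8.59, 8.53, 8.74 and 9.10 to fasted levels of 8.06, 7.84, 7.91 and 8.68, a difference of -0.62 ± 0.11 (adjusted p = 0.0651), with a pass in 3 of the 11 alternatives. The mitochondrial enzyme gene Gpd2 was at -0.51 ± 0.12 (adjusted p = 0.124). Gpd1l was at -0.12 ± 0.22 (adjusted p = 0.950). Gk5 had the opposite sign, at 0.25 ± 0.11 (adjusted p = 0.459), and was higher in 4 of 4 experiments.

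None of 18 genes in the bicarbonate transport list, which leaves out Slc4a4, passed by limma, and none had an unadjusted p below 0.05. Their differences ran from -0.24 in Slc26a6, an anion exchanger, to 0.19 in Slc4a8, a sodium-driven chloride-bicarbonate exchanger. Among 12 other carbonic anhydrases none passed and 1 had an unadjusted p below 0.05. That was Car4, the membrane-anchored enzyme of the capillary wall and sarcolemma, with fed levels of 5.97, 6.29, 6.32 and 6.16 and fasted levels of 6.93, 6.85, 6.50 and 7.31. Its difference was 0.71 ± 0.17 (adjusted p = 0.134), and a pass came in 1 of the 11 alternatives, with array weights (adjusted p = 0.0399). The other 11 lay between -0.21 and 0.09. None of 10 genes in the proton and lactate transport list had an adjusted or unadjusted p below 0.05 by limma. The lactate exporter gene Slc16a3, named after its value was seen, was at 0.05 ± 0.11.

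**Figure D4:**
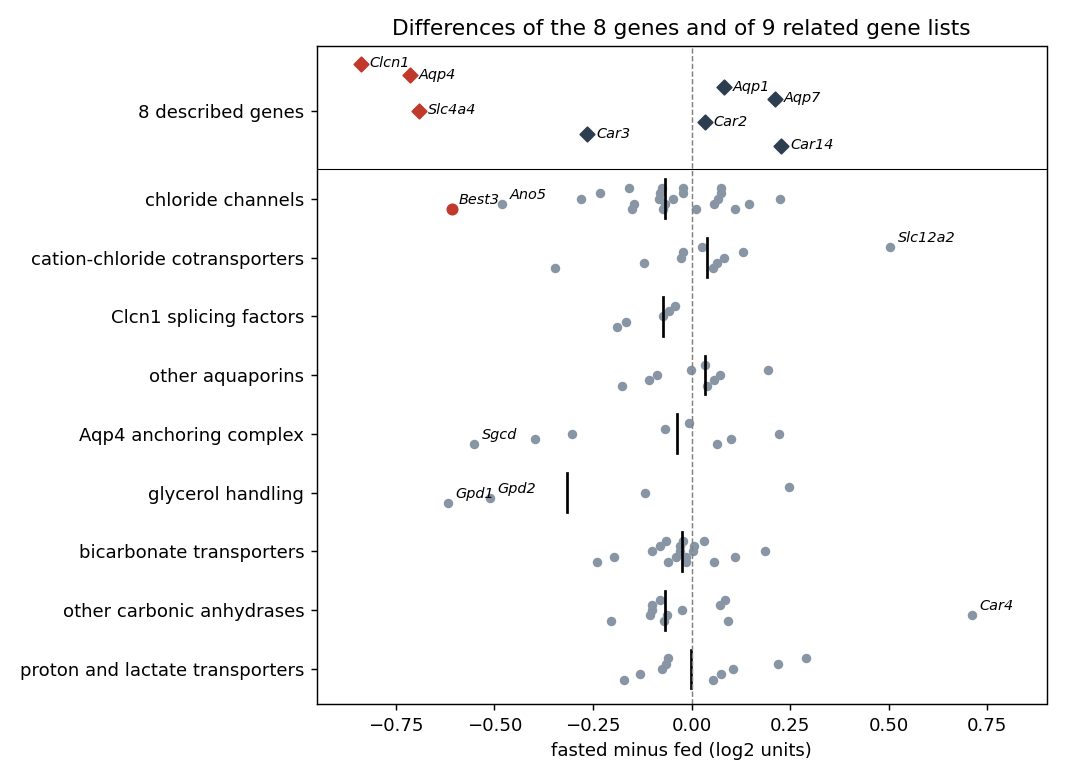
Fasted minus fed difference in log2 units (horizontal axis) of the 8 genes (diamonds) and of the 99 genes of 9 related lists (points), with a bar at each list's median. Red marks an adjusted p below 0.05 over all clusters, which among the list genes is Best3 at -0.61, and Car4 at 0.71 is the farthest to the right without passing.

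The genes most like each member over the 8 arrays were found by the root mean square difference of their values, after each gene was centred on its own mean, among 13686 other genes. For Clcn1 they were Ddit4l, a relative of the mTORC1 inhibitor gene Ddit4, and Ston2, an endocytic adaptor, at 0.12 log2 units each, where Clcn1 itself varied by 0.49 about its mean. For Aqp4 they were Best3 at 0.08 and Tnfaip2 at 0.11, against 0.38 for Aqp4. For Slc4a4 they were Plaat1, a phospholipid acyltransferase, at 0.10 and Ostc, a subunit of the oligosaccharyltransferase complex, at 0.11, against 0.36. The differences of these 6 genes themselves ran from -0.79 to -0.55, which is part of what the likeness measures, and all but Plaat1 (adjusted p = 0.0728) passed the threshold.

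For the members that differed little, the nearest genes were Cbfa2t2 and Coq2 for Aqp1 (0.06 log2 units each), Tnrc6a and Ripor1 for Aqp7 (0.05 each), L3mbtl2 and Osgep for Car2 (0.05 and 0.06) and Mcrip2 and Mgst3 for Car14 (0.08 and 0.09). Car3 was nearest to Cuedc1 and to Phkg1, the catalytic subunit of muscle phosphorylase kinase, at 0.06 each, against 0.28 for Car3 about its own mean. Phkg1 was at -0.31 in its fasted minus fed difference, near the -0.26 of Car3, with an adjusted p of 0.383.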

How the data were processed

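Expression was measured on exon arrays of 4 fed and 4 fasted pools of 3 mice. The authors deposited values on a log2 scale, made with RMA per the submitters' processing notes, a method of background correction, normalization between arrays and probe summary. Its version and probe class are not given in the sources at hand. Base 2 was inferred from the range of 1.08 to 13.3, since the natural log of a 16-bit scanner range ends at 11.1. RMA compresses differences at low signal. SPIA amplification, named in the labels' protocols, can distort transcript proportions. Detection calls were not used here, so a low level may be background, and the number of arrays limits the precision.

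Gene symbols are those of the platform annotation and may be outdated, and all 8 members matched RefSeq by Entrez number. The notes name the human build hg18 with no role, so only RefSeq start regions carry coordinates. The fit used limma 3.58.1 and R 4.3.3 (lmFit and eBayes with experiment as a block; 3 residual and 4.84 prior degrees of freedom), two-sided, with Benjamini-Hochberg adjustment over 16755 clusters and a threshold of 0.05. The series description puts 1 fed and 1 fasted pool in each experiment, which is the pairing; paired deviations correlated at -0.18, 0.05, -0.14 and 0.44 in experiments 1 to 4. The labels do not say whether experiments shared animals, so p-values measure the spread between pools.

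Members, lists and tests were chosen with earlier results of these data known. Named genes are the members, list genes past the threshold and the 2 nearest genes of each member. Also named are the 3 of each transport list and 2 of each marker list with the smallest adjusted p (shown in part). Adipoq, Plin1, Retn, Fabp4, Pecam1, Alas2, Dmd, Slc16a3 and further Clcn genes were added after their values were seen. Of 16 lists, 7 are cell type markers; the nerve and Schwann cell list (5 measured, median 0.00) and the macrophage list (6 measured, median 0.06) had no member past the threshold, and 0 and 1 at an unadjusted p below 0.05. Alternatives were other blocks, normalizations, filters, priors and weights and leaving out each experiment.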

Additional observations from a re-analysis of the deposited data

Results flagged for a closer look

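In groups of 4 pools, 1 of the 8 genes had a pool that stood apart by Dixon's criterion: the fasted pool of experiment 4 had a Car14 level of 8.04 against 7.50 to 7.56 in the other 3 fasted pools. Among other named genes, pools stood apart in Adig in the fed pool of experiment 3 (4.66 against 4.91 to 4.94), Best3 in the fed pool of experiment 4 (6.02 against 5.81 to 5.84), Clcn3 in the fed pool of experiment 1 (6.71 against 7.02 to 7.07) and Rhag in the fed pool of experiment 4 (3.98 against 4.46 to 4.56). The same held for Sspn in the fed pool of experiment 3 (7.53 against 7.73 to 7.76), Mcrip2 and Ripor1 in the fasted pool of experiment 4 (7.67 against 7.004 to 7.11, and 6.70 against 6.48 to 6.51) and Osgep in the fasted pool of experiment 2 (8.38 against 8.10 to 8.14). In all, 9 of 128 groups were marked, where chance marks about 5%.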

How the results depend on the processing

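Among 16755 clusters, 137 passed by limma, and 16 to 94 when 1 experiment was left out, 45 after median centring, 240 once the 25% of clusters with the lowest mean were dropped, 265 with array weights, 229 under a random experiment block and 216 when the prior was trended and robust. Without the experiment block 185 passed, and the replicate block changed the call of Clcn1 (adjusted p of 0.0536 without it) and, of the other members, none. Of the 8 members 3 passed, against 0 to 1 when 1 experiment was left out and 0 after median centring, where 3 or 4 still had an unadjusted p below 0.05; leaving out an experiment also leaves fewer arrays. Without experiment 3 the member that passed was Clcn1 (adjusted p = 0.0481). Of the 99 transport genes 1 passed, against 0 when any 1 experiment was left out (7 to 10 at an unadjusted p below 0.05), 0 after median centring (10 unadjusted), 3 with array weights, 2 once the lowest 25% were dropped and 2 when the prior was trended and robust. Otherwise the cause of these changes was not tested. The signs of the 8 members held in all 11 alternatives except that of Aqp1 without experiment 2 (-0.0040). Averaging several clusters of a gene was not run, since each member has 1.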
